A study of Mus musculus with 16 samples.

Results

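Lysosome genes were followed in mouse embryonic stem cells during acute loss of the RNA helicase DDX10. The set was a fixed list of 33 gene symbols covering lysosomal hydrolases, lysosomal membrane proteins, lipid-handling proteins and subunits of the proton pump, and all 33 were found among the 14552 genes of the deposited table. The cells were the E14 line with the genotype Ddx10-AID, Tir1: an auxin-inducible degron (AID) on Ddx10, together with Tir1, a plant F-box protein that, once auxin is bound, marks AID-tagged proteins for the proteasome. All groups shared this genotype, and all were grown on gelatin with serum, LIF, the GSK3 inhibitor CHIR99021 and the MEK inhibitor PD0325901. The labels state that mRNA purified from total RNA was sequenced. The groups were untreated cells, cells kept for 2, 4, 6 or 12 h, 1 day or 2 days with auxin (indole-3-acetic acid at 500 µM), and cells kept for 2 days in auxin and then 2 days without it, called withdrawal here. Each group had 2 libraries, 16 in all. Auxin-treated cells without the degron were not analysed here, which means that auxin itself and DDX10 loss cannot be told apart. There were no untreated cells for each time, so any effect of time in culture cannot be told apart either.

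The lysosome is the acidic compartment in which cells break down proteins, glycans, lipids and material delivered by autophagy. A vacuolar proton pump (V-ATPase) acidifies it, soluble hydrolases digest its contents, and highly glycosylated membrane proteins line it and carry products out. Many of these genes are under the transcription factors TFEB, TFE3 and MITF, which bind the CLEAR element, a sequence built around the E-box CACGTG, and which are held in the cytoplasm while the kinase mTORC1 is active. In mouse embryonic stem cells TFE3 is also known for a part in the exit from the naive pluripotent state.

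Values are the deposited normalized counts per library. The libraries held an estimated 13.56 to 17.5 M reads on the genes of the table, and between 14408 and 14494 genes were above 0. The 13355 genes whose mean reached 10 were tested, all 33 lysosome genes among them, by limma on log2(value + 1) in 1 fit of the 16 libraries. A gene is called higher or lower where its Benjamini-Hochberg adjusted p within a comparison was below 0.05. Whether the 2 libraries of each group derive from separate cultures is not stated in the labels, so p-values reflect only how these libraries spread, which may be technical. In such bulk RNA, a change in the share of cells of a type and a change in RNA per cell cannot be told apart. The degron acts on the protein, so the Ddx10 transcript does not check the treatment. Ddx10 had 1433 and 1509 normalized counts in untreated cells, 1847 and 2046 at 2 h and 997 and 1041 at 2 days. Its log2 change against untreated was called at 2 h and 4 h (0.40 and 0.35, limma adjusted p = 0.0248 and 0.0389) and, downward, at 1 and 2 days (-0.53 at both, limma adjusted p = 0.00184 and 0.00131). The 8 embryonic stem cell markers listed were all present. Their summed normalized counts were 102230 to 107110 in untreated cells, 80842 to 92267 at 2 to 12 h, 102170 to 106620 at 1 and 2 days and 115430 to 117850 after withdrawal. Of the 8, 3 were higher and 2 lower at 2 days, against 21.0% and 23.8% of all tested genes. The lower markers were Pou5f1 and Zfp42. Klf4, Nanog and Tdgf1 had both 2 days libraries above both untreated ones, and Pou5f1, Zfp42 and Sox2 had both below. Klf4 had 5377 and 5464 at 2 days, against 3380 and 1915 in untreated cells. The markers also differed at 2 to 12 h. Dppa5a had 11306 to 13541 in those libraries, against 21243 and 23631 in untreated cells, and Nanog 14270 to 16435 against 15332 and 14325.

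Promoters are shown for lysosome genes because most of the set moved together at 1 and 2 days, and because the E-box of the CLEAR element can be read directly in them. RefSeq promoters on GRCm38.p6, from 250 bases before to 50 bases after each gene start, matched 29 of the 33 genes, with 31 promoters. Ctsb, Atp6v1h, Npc1 and Asah1 had no entry. Both strands were searched for CACGTG and for the longer word TCACGTG, every match of which also contains CACGTG. Sequences run 5′ to 3′ along the gene's strand, and capitals mark TCACGTG or its reverse complement CACGTGA. Ctsd, Ctsa, Gaa, Glb1 and Lamp1 were called higher at 2 days, and Gla was not called. Ctsd lies on the minus strand, chr7:142387778-142388077. Ctsa is shown with the second of its 2 promoters, plus strand, chr2:164833523-164833822. Gaa lies on the plus strand, chr11:119267713-119268012, Glb1 on the plus strand, chr9:114400828-114401127, and Lamp1 on the plus strand, chr8:13158911-13159210. Gla lies on the minus strand, chrX:134600956-134601255.
Ctsd: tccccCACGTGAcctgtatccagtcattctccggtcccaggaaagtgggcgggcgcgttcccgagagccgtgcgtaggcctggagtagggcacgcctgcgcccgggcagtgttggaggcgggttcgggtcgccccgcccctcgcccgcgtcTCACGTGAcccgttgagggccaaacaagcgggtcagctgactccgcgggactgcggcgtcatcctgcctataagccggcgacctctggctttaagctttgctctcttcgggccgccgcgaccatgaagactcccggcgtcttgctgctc
Ctsa: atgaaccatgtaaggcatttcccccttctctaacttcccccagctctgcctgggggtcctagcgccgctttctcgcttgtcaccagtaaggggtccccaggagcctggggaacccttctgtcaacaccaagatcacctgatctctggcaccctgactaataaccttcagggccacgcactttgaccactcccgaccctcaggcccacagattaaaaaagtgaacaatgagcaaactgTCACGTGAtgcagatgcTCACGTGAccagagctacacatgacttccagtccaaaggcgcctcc
Gaa: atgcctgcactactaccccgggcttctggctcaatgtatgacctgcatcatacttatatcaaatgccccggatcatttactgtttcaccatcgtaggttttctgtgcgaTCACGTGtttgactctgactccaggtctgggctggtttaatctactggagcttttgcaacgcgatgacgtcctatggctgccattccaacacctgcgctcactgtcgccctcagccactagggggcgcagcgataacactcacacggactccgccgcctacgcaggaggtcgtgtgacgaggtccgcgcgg
Glb1: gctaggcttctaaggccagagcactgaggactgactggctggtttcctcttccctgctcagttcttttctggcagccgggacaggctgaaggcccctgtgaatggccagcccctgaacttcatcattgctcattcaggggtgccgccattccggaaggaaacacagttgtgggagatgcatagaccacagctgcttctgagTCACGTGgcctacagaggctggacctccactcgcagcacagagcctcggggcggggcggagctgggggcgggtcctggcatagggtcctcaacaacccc
Lamp1: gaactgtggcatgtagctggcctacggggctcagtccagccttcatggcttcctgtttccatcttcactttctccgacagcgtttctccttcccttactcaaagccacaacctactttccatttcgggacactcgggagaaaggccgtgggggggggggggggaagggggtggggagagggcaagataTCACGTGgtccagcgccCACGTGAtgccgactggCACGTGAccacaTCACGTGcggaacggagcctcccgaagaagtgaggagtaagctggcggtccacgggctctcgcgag
Gla: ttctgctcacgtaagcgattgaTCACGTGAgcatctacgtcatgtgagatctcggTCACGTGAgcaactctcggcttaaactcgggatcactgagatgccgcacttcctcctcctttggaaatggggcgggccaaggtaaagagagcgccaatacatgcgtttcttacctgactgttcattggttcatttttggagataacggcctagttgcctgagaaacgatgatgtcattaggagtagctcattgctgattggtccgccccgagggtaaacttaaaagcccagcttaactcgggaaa

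In the Lamp1 promoter CACGTG began at 4 positions, -61, -45, -28 and -15 from the start. The first Ctsa promoter held none, while the second had CACGTG at -12 and 5. In Ctsd the matches stood at -245 and -98, in Gaa at -140, in Glb1 at -48 and in Gla at -227 and -194. The longer word TCACGTG was found in 11 of 29 lysosome genes (37.9%), against 4.29% of all 27025 genes with a promoter and 7.1% of the 9825 of those that were tested. CACGTG was found in 12 of 29 (41.4%), against 8.09% of all genes and 12.1% of tested genes. Over promoters in place of genes, TCACGTG was in 3.77% and CACGTG in 7.15% of 32851. Within the set, TCACGTG was in 6 of the 16 genes called higher at 2 days, in 5 of the 12 not called and not in the 1 called lower. The genes with TCACGTG that were called higher were Ctsa, Ctsd, Gaa, Glb1, Lamp1 and Sgsh, and those not called were Atp6v0d1, Atp6v1a, Gla, Mcoln1 and Naglu. A match is a description of these letters in this window and does not show a bound site. Because many lysosome genes are known for this element, a high share in such a list was foreseeable and is no result of the treatment.

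Few lysosome genes changed in the first 6 h. At 12 h more were called higher than in the background, with a share called lower near it, and at 1 and 2 days most stood above untreated cells. After withdrawal most were back near untreated levels. At 2 h, 0 genes were called higher and 2 lower, against 6.75% and 8.45% of all tested genes. At 4 h the counts were 0 and 3 (background 8.86% and 10.2%), and at 6 h 3 and 3 (background 10.9% and 13.4%). At 12 h, 10 were higher and 7 lower, against 14.8% and 18.3% of all genes. At 1 day 18 were higher and 1 lower, against 15.9% and 17.7%, and at 2 days 19 were higher and 1 lower, against 21.0% and 23.8%. The median log2 change of the 33 genes against untreated was -0.10 at 2 h, -0.12 at 4 h, -0.02 at 6 h, 0.05 at 12 h, 0.42 at 1 day and 0.68 at 2 days, while the median over all tested genes lay between -0.01 and 0.02 at each of these times. All of these comparisons share the 2 untreated libraries.

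**Figure D1:**
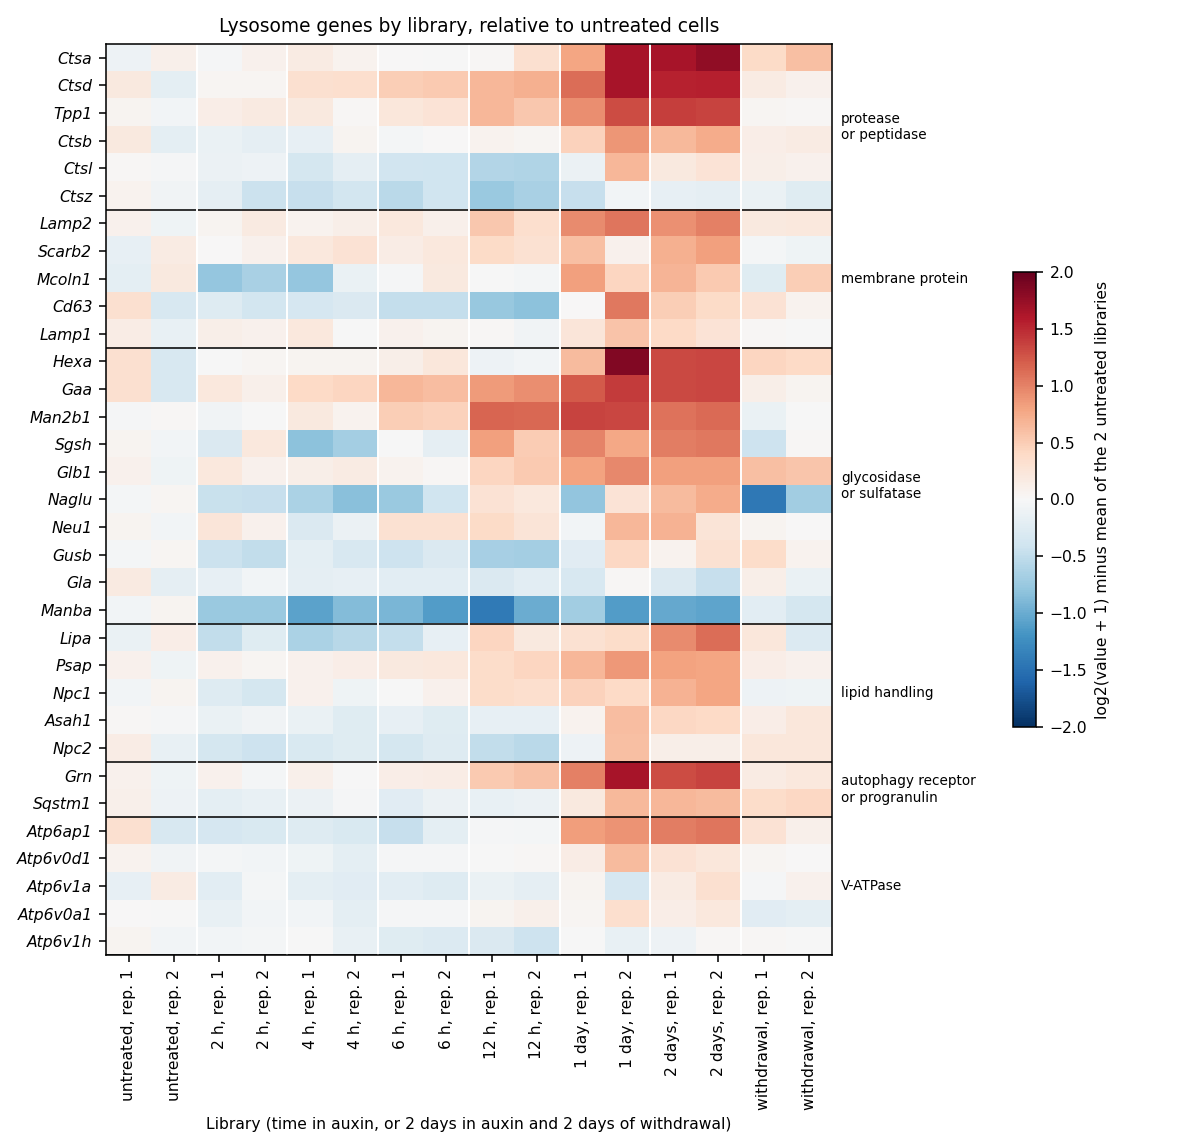
Log2 normalized counts of the 33 lysosome genes (rows, grouped by role) in each of the 16 libraries (columns, untreated, then by time in auxin, then withdrawal), relative to the mean of the untreated libraries. Most rows turn to higher values in the 1 day and 2 days columns and return in the withdrawal columns, while Manba is lower at every time in auxin.

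**Figure D2:**
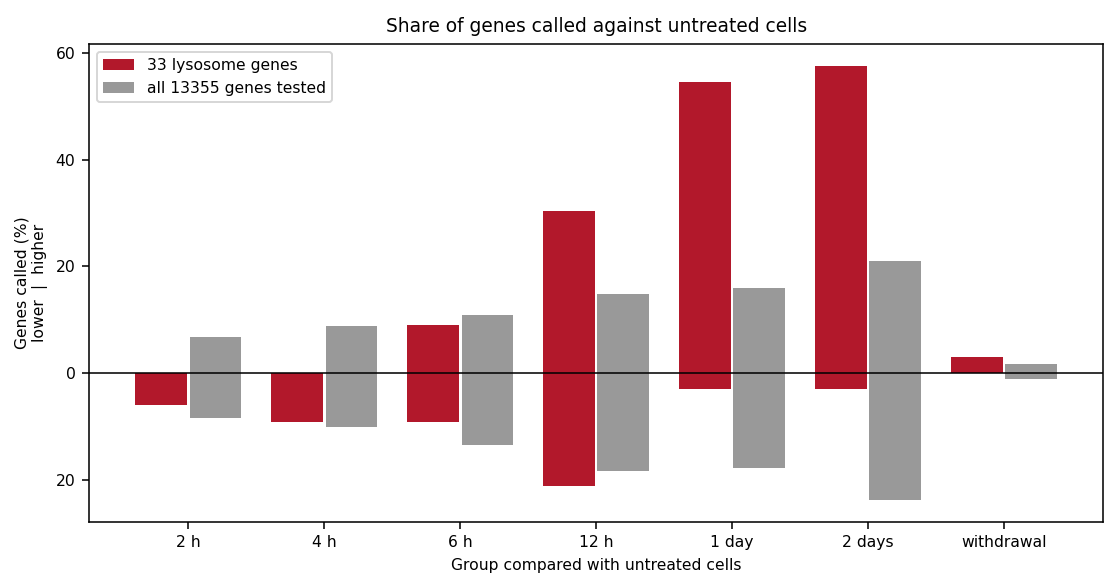
Percentage of genes called higher (above 0) and lower (below 0) against untreated cells in each group, for the 33 lysosome genes and for all 13355 tested genes. The lysosome genes reach 54.5% higher at 1 day and 57.6% at 2 days, against 15.9% and 21.0% of all genes, and 3.03% after withdrawal.

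An F-test over the 6 times in auxin, which asks for any change against untreated, called 31 of the 33 genes, against 65.2% of all tested genes. The genes it did not call were Neu1, the sialidase, and Gla, alpha-galactosidase A. The 10 genes with the smallest p were Man2b1, Tpp1, Lamp2, Psap, Ctsd, Glb1, Grn, Npc1, Atp6ap1 and Gaa. At 2 days both libraries lay above both untreated libraries for 27 of the 33 genes, which held for 34.6% of all tested genes. The same was true of 21 genes at 1 day (27.4% of all genes) and of 15 genes at 12 h (33.3% of all genes). Genes called at least 2-fold higher numbered 1 at 12 h, 8 at 1 day and 10 at 2 days. This 2-fold count was not made for all tested genes, so its background is not known.

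Several markers of another lineage were also called higher at 1 and 2 days, where 15.9% and 21.0% of all tested genes were. Of 10 primitive endoderm markers 9 were in the table and 8 were tested, and 6 of the 8 were called higher at 1 day and at 2 days. Their summed normalized counts were 2539.8 to 4961 in untreated cells, 4789.6 to 5633 in the libraries of 2 to 12 h, 7359 to 7843 at 1 day, 11528 to 12066 at 2 days and 5148 to 5222 after withdrawal. The sum was carried by basement membrane genes: Col4a1, a collagen IV chain, had 3011 and 3338 normalized counts at 2 days, against 639.7 and 356 in untreated cells. Lama1 already had 1875 and 2042 at 2 h, against 1213 and 427 in untreated cells. The lineage factors were low in all libraries. Gata6 had 20.1 and 12.7 normalized counts at 1 day and 24.0 and 11.1 at 2 days, against 1.24 and 4.06 in untreated cells. Gata4 had 23.1 and 24.0 at 1 day and 36.1 and 44.4 at 2 days, against 24.1 and 23.6 in untreated cells. Sox17 had 8.86 to 13.7 in the 4 libraries of 1 and 2 days and at most 5.35 in the other 12, with 0 in 1 library at 12 h and 1 withdrawal library. Their part in the lysosome result was not tested. Of 9 macrophage markers 2 were in the table, with sums of 31.5 to 79.1, and neither was called against untreated at any time. Of 9 fibroblast markers 4 were in the table, with sums of 146 to 289, and of 10 trophectoderm markers 7 were, with sums of 1678 to 2549, highest at 2 days. Of the 6 trophectoderm markers tested, 1 was higher and 2 were lower at 2 days, against 21.0% and 23.8% of all tested genes. The median log2 change of the 6 was -0.41. Tfap2c had 1775 and 1647 normalized counts at 2 days against 824 and 526 in untreated cells, and Krt8 245 and 279 against 481 and 335.

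The peptidases held the largest changes of the set at 2 days, with 4 of 6 called higher and a median log2 change of 1.03. Of all tested genes 21.0% were called higher at that time. Ctsa, cathepsin A, is a carboxypeptidase that also protects beta-galactosidase and the sialidase Neu1. It had 2152 and 2343 normalized counts at 2 days, against 641 and 736 in untreated cells. Both libraries lay far above both untreated libraries, with a mean of 2248 ± 135 against 689 ± 67.0 (SD, n = 2 each) and a log2 change of 1.71 ± 0.20 (SE; limma adjusted p = 1.38e-05). Ctsd, the main aspartic protease of lysosomes, had 9344 and 9481 at 2 days, against 3708 and 2810.2 in untreated cells. The groups did not overlap, and the log2 change was 1.54 ± 0.14 (limma adjusted p = 1.4e-06). Tpp1, tripeptidyl peptidase 1, had 2230.5 and 2192 against 890.2 and 826 in untreated cells, without overlap and with a log2 change of 1.37 ± 0.11 (limma adjusted p = 4.66e-07). Ctsb, a cysteine protease, had 1855 and 1973 against 1354 and 1023 in untreated cells, a log2 change of 0.70 ± 0.14 (limma adjusted p = 0.00104). The cysteine proteases Ctsl and Ctsz did not pass the test: Ctsl had 2605 and 2748 against 2319 and 2248, and Ctsz 842 and 831 against 990.1 and 902 in untreated cells.

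**Figure D3:**
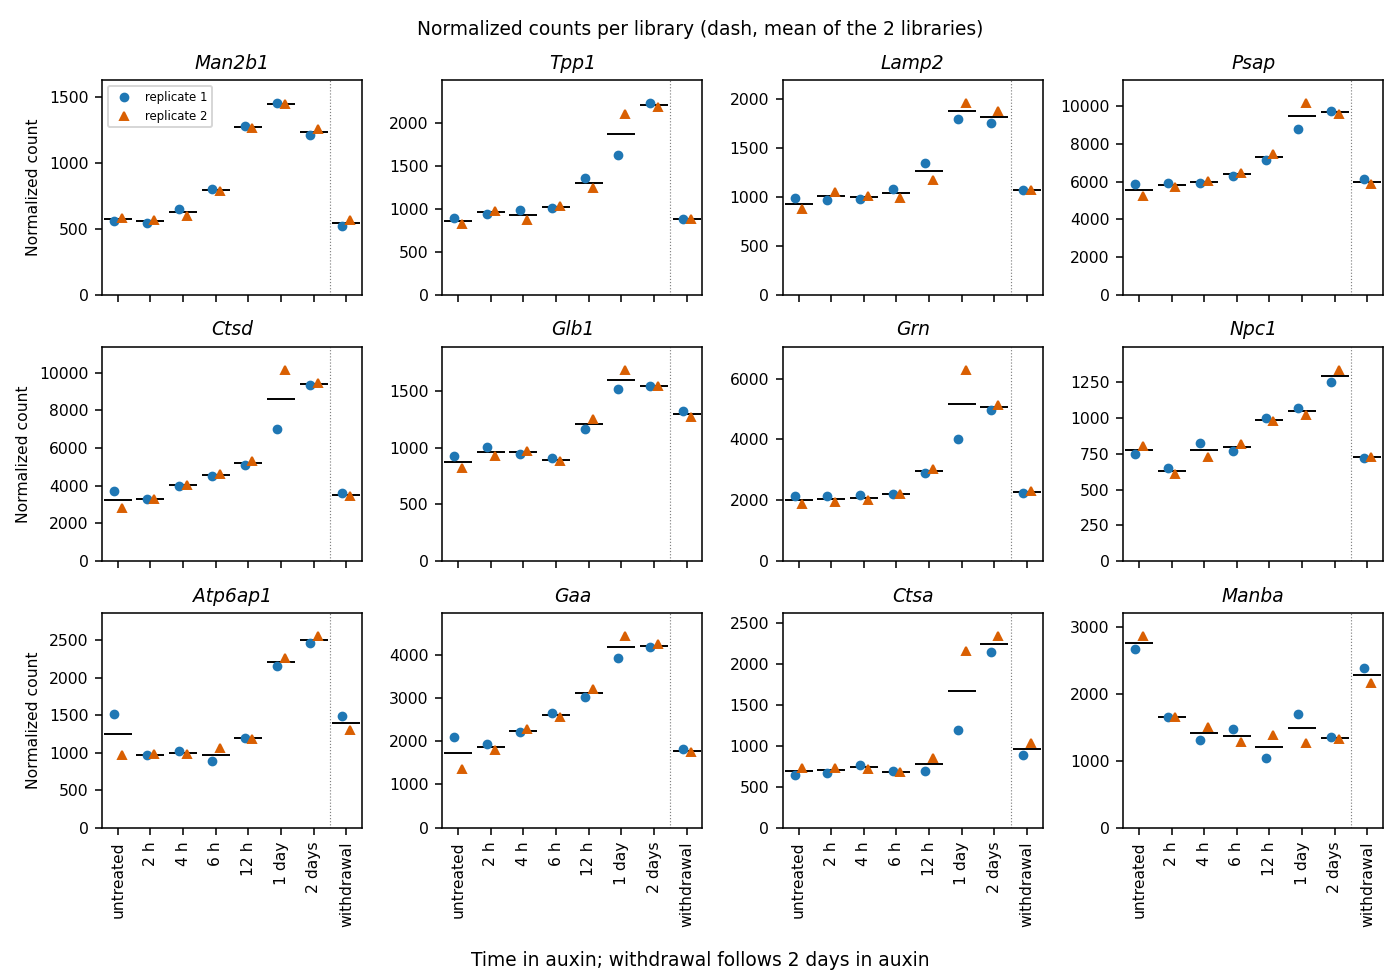
Normalized counts in each library (points, 2 per group, with the group mean as a dash) for 12 lysosome genes over untreated cells, the 6 times in auxin and withdrawal. Man2b1 is near its highest level by 12 h, Ctsa rises between 12 h and 2 days, Glb1 stays above untreated after withdrawal, and Manba is low at every time in auxin.

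Glycosidases and sulfatases were the most divided group, with 5 of 10 called higher, 1 lower and 4 not called at 2 days. The shares of all tested genes were 21.0% higher and 23.8% lower. Man2b1, the lysosomal alpha-mannosidase, had 1213 and 1253 normalized counts at 2 days, against 559 and 580.4 in untreated cells. These groups were far apart, with a log2 change of 1.11 ± 0.08 (limma adjusted p = 2.38e-07). Gaa, the acid alpha-glucosidase that degrades lysosomal glycogen, had 4171 and 4245 at 2 days, against 2094 and 1344 in untreated cells. The untreated libraries were uneven but both lay below, and the log2 change was 1.33 ± 0.14 (limma adjusted p = 6.64e-06). Hexa, the alpha subunit of beta-hexosaminidase, had 1416 and 1433 against 709.8 and 451 in untreated cells, a log2 change of 1.33 ± 0.28. Glb1, lysosomal beta-galactosidase, had 1542 and 1543 against 924 and 821, a log2 change of 0.82 ± 0.09. Sgsh, which removes sulfate from heparan sulfate, was low throughout and had 119 and 121 against 59.9 and 55.9 in untreated cells, a log2 change of 1.04 ± 0.24 (limma adjusted p = 0.0029). The enzymes not called at 2 days were Gusb, beta-glucuronidase, Neu1, Gla and Naglu, which acts on heparan sulfate. Gusb had 279 and 328 normalized counts against 260.0 and 272, Neu1 462 and 342 against 296 and 276, and Naglu 48.1 and 51.9 against 30.0 and 31.6 in untreated cells. All of these 2 days libraries lay above the untreated ones, without passing the test. Gla had 276 and 244 normalized counts at 2 days, both below the 382 and 296 of untreated cells (log2 change -0.37, limma adjusted p = 0.0651).

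Manba, the lysosomal beta-mannosidase, went against the rest. Its normalized counts were 2669 and 2864 in untreated cells, 1652 and 1661 (2 h), 1312 and 1509.8 (4 h), 1474 and 1276 (6 h), 1036 and 1388 (12 h), 1704 and 1271 (1 day), and 1360.4 and 1328 (2 days). After withdrawal they were 2396 and 2162. Every auxin library lay below every untreated and withdrawal library. Manba was called lower at each of the 6 times, with log2 changes between -1.20 at 12 h and -0.74 at 2 h, and its withdrawal libraries were higher than those of 2 days by 0.76 ± 0.15 (limma adjusted p = 0.000963). Against untreated the withdrawal level was not called. Man2b1, which cleaves alpha-linked in place of beta-linked mannose, was called higher at 6 h, 12 h, 1 day and 2 days, times at which Manba was called lower.

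Of the 5 lipid-handling genes 4 were called higher at 2 days, against 21.0% of all tested genes. Psap, the precursor of the saposins that present lipids to hydrolases, had 9747 and 9610.2 normalized counts, against 5867 and 5249 in untreated cells. The 2 groups were well separated and the log2 change was 0.80 ± 0.07 (limma adjusted p = 1.76e-06). Lipa, the lysosomal acid lipase, had 158 and 179 against 74.4 and 89.4, a log2 change of 1.03 ± 0.22, and Npc1, the membrane protein of cholesterol export, had 1255 and 1338 against 749 and 804, a log2 change of 0.74 ± 0.09. Asah1, acid ceramidase, had 2120.0 and 2093 against 1618 and 1564 in untreated cells, a log2 change of 0.40 ± 0.13 (limma adjusted p = 0.0179). Npc2, the soluble partner of Npc1, had 2390.1 and 2385 at 2 days, between the 2450.3 and 1989 of untreated cells, and was not called.

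Among membrane proteins Lamp2, Scarb2 and Lamp1 were called higher at 2 days, 3 of 5, against 21.0% of all tested genes. Lamp2, needed for chaperone-mediated autophagy and for fusion with autophagosomes, had 1754 and 1879 normalized counts against 987 and 878 in untreated cells. The libraries did not overlap, and the log2 change was 0.96 ± 0.09 (limma adjusted p = 2.77e-06). Its relative Lamp1 had 10185 and 9425 against 8572 and 7017, a log2 change of 0.34 ± 0.11 (limma adjusted p = 0.0226). Scarb2, the receptor that carries glucocerebrosidase to lysosomes, had 659.6 and 710.1 against 357 and 451, a log2 change of 0.77 ± 0.15. The calcium channel gene Mcoln1 had 852 and 765 against 464 and 608 (log2 change 0.60, limma adjusted p = 0.0526), and the tetraspanin gene Cd63 2189 and 2041 against 1937 and 1251. For both of these genes the 2 days libraries lay above the untreated ones, but the test was not passed.

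Grn, which encodes progranulin, a lysosomal glycoprotein precursor, had 4972 and 5139.6 normalized counts at 2 days, against 2129 and 1890.3 in untreated cells. These groups did not overlap, with a log2 change of 1.33 ± 0.15 (limma adjusted p = 7.38e-06). Sqstm1, the autophagy receptor p62, had 5316 and 5163 against 3598 and 3098, a log2 change of 0.65 ± 0.12 (limma adjusted p = 0.00046).

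Of the 5 proton pump genes in the set 1 was called higher at 2 days, near the 21.0% of all tested genes. The median log2 change over the 5 was 0.24. The called gene was Atp6ap1, an accessory subunit that takes part in assembly of the pump. It had 2464 and 2553 normalized counts at 2 days, against 1519.9 and 974 in untreated cells, a log2 change of 1.04 ± 0.15 (limma adjusted p = 9.94e-05). Its untreated libraries were uneven, yet both lay below. The core subunits had smaller log2 changes: 0.26 for Atp6v0d1 and 0.17 for Atp6v0a1 of the membrane sector, 0.24 for Atp6v1a and -0.04 for Atp6v1h of the catalytic sector. At 1 day Atp6v0d1 was called higher, with 1649 and 2313 against 1573 and 1415 in untreated cells (log2 change 0.39, limma adjusted p = 0.0224).

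At 1 day the second library stood above the first for 25 of the 33 genes, with a median log2 difference of 0.34. Over the set, replicate log2 differences had an SD of 0.44 at 1 day, against 0.12 to 0.28 in the other groups. Over all tested genes the SD was largest for the untreated pair, 0.62, against 0.53 at 1 day. Within the set the gap at 1 day was widest for Hexa, with 882 and 2037 normalized counts. It was also over 2-fold for Naglu and Cd63. Without the second library 16 genes were called higher and 2 lower at 1 day, and without the first 22 and 2. The largest log2 changes at 1 day were 1.39 ± 0.14 for Ctsd, 1.34 ± 0.08 for Man2b1, 1.32 ± 0.15 for Grn and 1.31 ± 0.14 for Gaa. Man2b1 had 1451 and 1443 at 1 day, its highest level in the course, and its 2 libraries were close.

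The early times held a different pattern. At 2 h Manba and Npc1 were called lower, at 4 h Manba, Ctsz and Sgsh, and at 6 h Manba, Ctsz and Atp6v1h. The first genes called higher were Man2b1, Ctsd and Gaa at 6 h. Man2b1 had 799 and 783 normalized counts at 6 h, against 559 and 580.4 in untreated cells, a log2 change of 0.47 ± 0.08 (limma adjusted p = 0.00107). Ctsd had 4535 and 4631 against 3708 and 2810.2, and Gaa 2652 and 2567 against 2094 and 1344, and for both the libraries did not overlap.

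At 12 h the higher genes were Man2b1, Gaa, Ctsd, Sgsh, Tpp1, Grn, Glb1, Lamp2, Psap and Npc1. The Sgsh call was lost under many of the alternative fits described below. Among these were a replicate block, library weights and removal of the trend on length and GC content. Man2b1 had 1278 and 1267 at 12 h, a log2 change against untreated of 1.16 ± 0.08 (limma adjusted p = 5.26e-07), about the change it had at 2 days. The lower genes at 12 h were Manba, Cd63, Ctsz, Gusb, Ctsl, Npc2 and Atp6v1h. Ctsl had 1517 and 1509 normalized counts at 12 h, against 2319 and 2248 in untreated cells, and Ctsz 566 and 603 against 990.1 and 902. For these genes both 12 h libraries lay below both untreated ones, with log2 changes of -0.59 ± 0.17 and -0.69 ± 0.13. Leaving out the first 12 h library left 8 genes higher and 3 lower, and leaving out the second left 8 and 2.

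Libraries of 2 to 12 h stood apart from the other groups in many genes. For 1015 genes, 7.60% of those tested, the 8 libraries of 2 to 12 h were all higher or all lower than the other 8. Among lysosome genes this held for Npc2 and Asah1, both lower at 2 to 12 h: Asah1 had 1342 to 1519 in those libraries and at least 1564 in the others. Across genes, the log2 change against untreated rose with transcript length at 2, 4, 6 and 12 h (Spearman rho 0.33, 0.30, 0.30 and 0.32 over 13286 genes, which share libraries), and hardly at 1 day (0.02) or 2 days (0.09). With the trend on length and GC content removed, 9 lysosome genes were higher and 7 lower at 12 h, and 21 and 1 at 2 days. The share of all tested genes called in that fit is not given here. Its median log2 change for the set was 0.07 at 12 h and 0.62 at 2 days, against -0.003 and -0.01 over all tested genes.

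Comparisons within the auxin times do not use the untreated means. The untreated libraries still enter the shared estimate of the spread, and so the standard errors and adjusted p. At 4 h against 2 h limma called 0 of the 33 genes, with 2 at an unadjusted p below 0.05, against 2.45% of all tested genes called. At 6 h against 2 h, Man2b1 and Npc1 were called higher and none lower (background 4.45% and 3.35%). At 12 h against 2 h, 12 genes were higher and 3 lower (background 10.9% and 13.7%), but 7 were called in all when any 1 of the 4 libraries was left out. Man2b1 rose the most, with 1278 and 1267 at 12 h against 545 and 568 at 2 h, a log2 change of 1.19 ± 0.08 (limma adjusted p = 6.6e-07). At 2 days against 12 h, a comparison added after the data were seen, 24 genes were higher and none lower, against 19.7% and 19.1% of all tested genes. With any 1 of those 4 libraries left out, 18 to 20 were higher and none lower.

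The 10 genes with the smallest p of the F-test differed in their course. Man2b1 had 545 and 568 normalized counts at 2 h, 651 and 596 (4 h), 799 and 783 (6 h), 1278 and 1267 (12 h), 1451 and 1443 (1 day) and 1213 and 1253 (2 days), and untreated cells had 559 and 580.4. It was the only one of the 10 whose 12 h libraries matched or exceeded those of 2 days. Gaa had 1942 and 1805 (2 h), 2207 and 2271 (4 h), 2652 and 2567 (6 h), 3016 and 3199 (12 h) and 3909.9 and 4422 (1 day), and Ctsd had 3304 and 3302, 4011 and 4063, 4535 and 4631, 5102 and 5293, and 7026 and 10163 at the same times. Both thus had higher group means at each time than at the one before, up to 1 day.

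Tpp1, Psap, Grn, Glb1 and Lamp2 were called higher from 12 h on. Tpp1 had 945 and 971 normalized counts at 2 h, 982 and 871 (4 h), 1007 and 1031 (6 h), 1356 and 1244 (12 h) and 1627 and 2109 (1 day). Psap had 5911 and 5708 (2 h), 5915 and 6055 (4 h), 6321 and 6451 (6 h), 7144 and 7448 (12 h) and 8773 and 10163 (1 day). In both genes the 12 h libraries lay above all those of 2 to 6 h. Grn had 2125 and 1951 (2 h), 2164 and 1995 (4 h), 2211 and 2218 (6 h), 2879 and 3023 (12 h) and 4017 and 6289 (1 day), with the 1 day libraries far apart. Glb1 had 1004 and 925 (2 h), 947 and 972 (4 h), 911 and 881 (6 h), 1168 and 1251 (12 h) and 1516 and 1688 (1 day). Lamp2 had 969 and 1053 (2 h), 981 and 1009 (4 h), 1081 and 994 (6 h), 1350.1 and 1176 (12 h) and 1795 and 1962 (1 day), so that its levels at 1 and 2 days overlapped.

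Npc1 and Atp6ap1 were not called higher before 12 h. Npc1 had 648 and 610.4 normalized counts at 2 h, 828 and 728 (4 h), 772 and 820.1 (6 h), 998 and 979.7 (12 h) and 1073 and 1024 (1 day), against 749 and 804 in untreated cells. It was called lower at 2 h and higher from 12 h on. Atp6ap1 had 968 and 981 (2 h), 1017 and 979 (4 h), 885 and 1059 (6 h), 1202 and 1184 (12 h) and 2163 and 2263 (1 day), against 1519.9 and 974 in untreated cells. It was called higher at 1 and 2 days only, among the 6 times in auxin.

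Ctsa, Hexa, Cd63 and Atp6ap1 were at least 2-fold higher at 2 days than at 12 h. Ctsa had 695 and 854 normalized counts at 12 h, within or near the 641 and 736 of untreated cells, then 1194 and 2160.2 at 1 day and 2152 and 2343 at 2 days. Its log2 change at 2 days against 12 h was 1.54 ± 0.20 (limma adjusted p = 7.5e-05). Hexa and Atp6ap1 likewise had small log2 changes against untreated at 12 h, -0.08 and -0.03, and changes at 2 days against 12 h of 1.41 ± 0.28 and 1.07 ± 0.15. Cd63, called lower than untreated at 12 h, had 2189 and 2041 at 2 days against 917 and 879.5 at 12 h, a log2 change of 1.23 ± 0.25 (limma adjusted p = 0.00183). Man2b1 by contrast had 1213 and 1253 at 2 days against 1278 and 1267 at 12 h and was not called between these times. The genes that were lower at 12 h, Cd63, Ctsl, Ctsz, Gusb, Npc2 and Atp6v1h, were each called higher at 2 days than at 12 h, whereas Manba was not. These genes were picked by their low 12 h libraries, which are also the reference here, so the choice itself favours a rise. The comparison also crosses the gap between the libraries of 2 to 12 h and the others.

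After withdrawal most of the set stood near untreated cells. Against untreated, 1 of the 33 genes was called higher and 0 lower, against 1.72% and 1.07% of all tested genes, and the median log2 change was 0.08. With the first untreated library left out 4 genes were called, and with the first withdrawal library left out 0. Limma called 0 lower, and 6 genes in either direction had an unadjusted p below 0.05. Against 2 days of auxin, 19 genes were lower in the withdrawal libraries and 1, Manba, was higher, against 19.1% and 22.2% of all tested genes. Ctsd had 3616 and 3444 normalized counts after withdrawal, against 9344 and 9481 at 2 days, a log2 change of -1.42 ± 0.14 (limma adjusted p = 3.64e-06). Tpp1 had 886 and 876 against 2230.5 and 2192, and Man2b1 522 and 564 against 1213 and 1253. For all 3 of these genes the withdrawal libraries lay far below those of 2 days. The remaining genes of the 10 also fell against 2 days: after withdrawal Lamp2 had 1072 and 1073, Psap 6113 and 5875, Grn 2237 and 2319.6, Npc1 720.4 and 731, Atp6ap1 1494 and 1307, and Gaa 1810.1 and 1742. Primitive endoderm markers fell too, with 5 of 8 tested lower after withdrawal than at 2 days, against 19.1% of all tested genes.

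**Figure D4:**
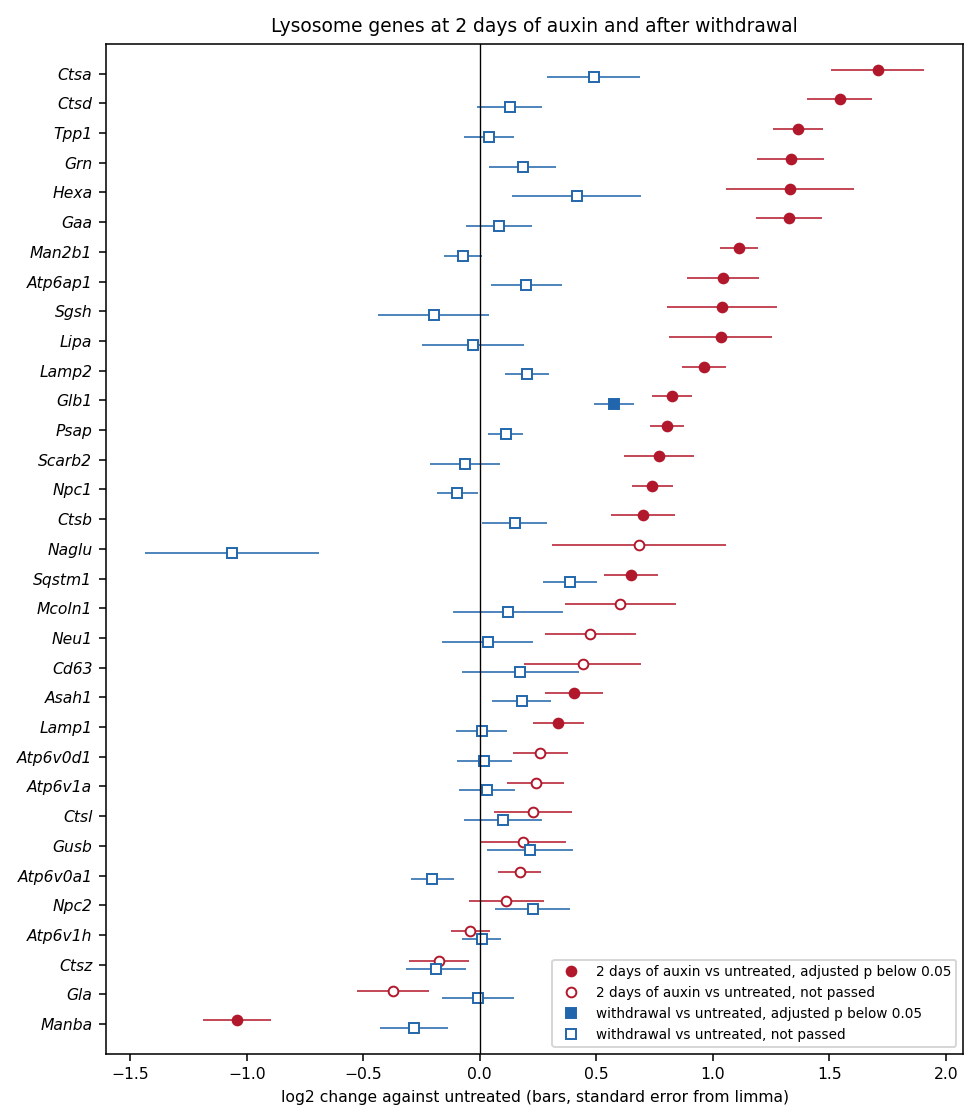
Log2 change against untreated cells for each of the 33 lysosome genes at 2 days of auxin and after withdrawal (points, with the limma standard error as bars). Points for 2 days reach 1.71 for Ctsa, while withdrawal points lie around 0, with Glb1 at 0.58 and Naglu at -1.06.

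Some genes returned less far. Glb1 had 1325 and 1275 normalized counts after withdrawal, against 924 and 821 in untreated cells, both libraries above both, with a log2 change of 0.58 ± 0.09 (limma adjusted p = 0.00464). The call was lost without the first withdrawal library (adjusted p = 0.0546) and in a limma fit of the 2 groups alone (adjusted p = 0.229). Over its other alternatives the adjusted p lay between 0.00112 and 0.037. Sqstm1 had 4287 and 4448 after withdrawal, above the 3598 and 3098 of untreated cells and below the 5316 and 5163 of 2 days, and passed neither test (limma adjusted p = 0.0966 and 0.0838). Asah1 had 1742 and 1864 after withdrawal and was likewise not called against 2 days. Ctsa had 894 and 1039 after withdrawal, above the 641 and 736 of untreated cells. Hexa had 761 and 749, above the 710 and 451 of untreated cells. Neither Ctsa nor Hexa was called against untreated, and both were called lower than at 2 days. Naglu, of low level, had 10.8 and 18.5 after withdrawal, against 48.1 and 51.9 at 2 days, a log2 change of -1.75 ± 0.37 (limma adjusted p = 0.00211). Those withdrawal libraries also lay below the 30.0 and 31.6 of untreated cells, where the test was not passed (log2 change -1.06, limma adjusted p = 0.149).

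Levels can be compared between genes only per length. Scaled by the longest coding transcript, 1441 to 6168 bases in this set with a median of 3299, and expressed per M of the summed scaled values, the highest levels in untreated cells were 574 for Lamp1, 344 for Psap and 251 for Ctsd. The lowest were 3.47 for Lipa, 2.18 for Sgsh and 1.98 for Naglu. On the same length-scaled scale at 2 days Ctsd stood at 842 and Lamp1 at 836, and Psap at 693. Ctsa stood at 117 at 2 days, against 31.1 in untreated cells. The length-scaled levels depend on which transcript is used, which the deposited gene values do not record.

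Other genes of the lysosome, none of them in the set of 33, were read from further lists. Of 27 other hydrolases tested, 14 were higher and 1 lower at 2 days, against 21.0% and 23.8% of all tested genes (median log2 change 0.48, against -0.01 over all genes). After withdrawal 15 were lower and 1 higher than at 2 days, against 19.1% and 22.2%. Aga, which cleaves the linkage between glycans and asparagine, had 133 and 167 normalized counts at 2 days against 61.1 and 37.8 in untreated cells. Its log2 change was 1.61 ± 0.27 (limma adjusted p = 0.000259). Lgmn, the asparaginyl endopeptidase legumain, had 1152 and 1117 against 730.3 and 618, a log2 change of 0.75 ± 0.12. Of 27 other membrane proteins 11 were higher and 2 lower at 2 days, with the same shares of all genes as for the hydrolases. Laptm4b rose by a log2 value of 0.75 ± 0.10, while Litaf fell by 0.89 and the nucleoside transporter gene Slc29a3 fell by 0.82 on the log2 scale.

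Of the 13 further V-ATPase subunits, 1 was higher and 6 lower at 12 h (median log2 change -0.32), against 14.8% and 18.3% of all tested genes. At 2 days 7 were higher and 0 lower (median 0.36), against 21.0% and 23.8%. Once the trend on length and GC content was removed, 0 were higher and 3 lower at 12 h. Atp6v1f, a small subunit of the catalytic sector, had 632 and 639 normalized counts at 12 h and 1334 and 1219 at 2 days, against 1072 and 908 in untreated cells. Both log2 changes were called, -0.63 ± 0.14 at 12 h and 0.37 ± 0.14 at 2 days (limma adjusted p = 0.00341 and 0.0458).

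Of 28 genes that bring enzymes to lysosomes, 10 were higher and 6 lower at 2 days, where 21.0% and 23.8% of all tested genes were. Igf2r, the large mannose 6-phosphate receptor, had 3401 and 3723 normalized counts against 1847 and 1738 in untreated cells. The libraries were well apart, with a log2 change of 0.99 ± 0.09 (limma adjusted p = 1.28e-06). Arl8a, a small GTPase that moves lysosomes along microtubules, had 1535 and 1419 against 632 and 451, a log2 change of 1.46 ± 0.13 (limma adjusted p = 1.33e-06). Sort1, the sorting receptor sortilin, had 301 and 339.6 against 516 and 586 and was called lower (log2 change -0.78 ± 0.12). Of 26 autophagy genes 9 were higher and 2 lower at 2 days, against 21.0% and 23.8% of all tested genes. Ulk1, the kinase that starts autophagy, had 10380.1 and 10391 against 4121 and 3206 in untreated cells, a log2 change of 1.51 ± 0.11 (limma adjusted p = 1.69e-07), and its partner Atg13 rose by 1.10 ± 0.12.

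Of 21 MiT/TFE factors and genes of their nutrient control, 4 were higher and 4 lower at 2 days, near the shares of all tested genes (21.0% and 23.8%). Mitf was called higher, with 772 and 837 normalized counts at 2 days against 502 and 255 in untreated cells (log2 change 1.17 ± 0.23, limma adjusted p = 0.00118). Tfeb had 615 and 689 against 915 and 253, and its untreated libraries were so uneven that the groups overlapped. Tfe3 had 2437 and 2224 against 2392 and 1612, and these groups overlapped too. Neither was called at 2 days (limma adjusted p = 0.376 and 0.208). At 12 h Tfe3 was called lower than untreated (log2 change -0.49 ± 0.15, limma adjusted p = 0.0234), and it was higher at 2 days than at 12 h (0.74 ± 0.15, limma adjusted p = 0.00202). Mitf was also called higher than untreated at 2 h, 6 h, 12 h and 1 day, with log2 changes of 0.77, 0.81, 1.19 and 1.22. The untreated libraries of Mitf were uneven too, and the 580 and 643 at 2 h were much nearer to the first of them. After withdrawal Mitf had 542 and 563, which was not called against untreated. Zkscan3, described as a repressor of autophagy and lysosome genes, had 932 and 939 against 516 and 517 in untreated cells, a log2 change of 0.86 ± 0.08 (limma adjusted p = 2.91e-06). Of 10 targets of NRF2, the oxidative stress factor that also controls Sqstm1, 0 were higher and 6 lower at 2 days, against 21.0% and 23.8% of all tested genes. G6pdx had 1020.4 and 922 against 1615 and 1548 in untreated cells, a log2 change of -0.70 ± 0.10 (limma adjusted p = 0.000101).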

How the data were processed

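Expression was measured by mRNA sequencing in 16 libraries of 8 groups, with groups, times, dose and replicate numbers from the labels. The values deposited by the authors are normalized read counts per gene, a signal that is not whole-numbered. Per the submitters' processing notes, Trim Galore, STAR, RSEM and DESeq2 were used with mm10 (GRCm38). For these tools no version or role, and for the 14552 genes no annotation or filter, is given in the sources used here. Scaling of this kind sets levels relative to the whole library, so a change in total RNA per cell is not seen. Whole reads could not be recovered for all genes: of low values, 71.79% to 98.99% per library were no further than 0.1 from whole multiples of 1 step for 1884 genes with 1 annotated transcript, and 36.38% to 44.55% for other genes. The step, between 0.89 and 1.246, gave the depth.

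Values were used as log2(value + 1), which understates the change of low genes. Genes with a mean of at least 10 entered 1 limma fit (limma 3.58.1, R 4.3.3, intensity trend, 8 residual degrees of freedom), with Benjamini-Hochberg adjustment over all 13355 genes per comparison. Over all tested genes, log2 changes had a median standard error of 0.16. Positions and lengths are from GENCODE M21 on GRCm38, which held 14467 of the gene identifiers. The fit was tested on simulated data. The members, the other gene lists and the rule for naming genes were chosen with earlier results of these data known. Genes named in full are the 10 with the smallest F-test p and any called after withdrawal against untreated, and from other lists at most 4 with the smallest F-test p, to which Tfeb, Tfe3, Mitf and Ddx10 were added. Alternatives were other pseudocounts (0.5, 5), a filter at a mean of 50 or none, 2 rescalings (trimmed means of M values, upper quartiles), a replicate block, library weights, removal of a trend on length and GC content, a fit of the compared groups alone, and leaving out each library.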

Additional observations from a re-analysis of the deposited data

How the results depend on the processing

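No result reversed under any alternative that was run. Of the 20 genes called at 2 days against untreated, 18 were called under all 15 alternatives, the exceptions being Asah1 and Lamp1, as were 11 of 19 at 1 day, 9 of 17 at 12 h, 2 of 6 (6 h), 1 of 3 (4 h) and 1 of 2 (2 h). Against 2 days, 16 of the 20 withdrawal calls held throughout, the exceptions being Atp6v0a1, Glb1, Hexa and Lamp1. The total called at 2 h became 1 with library weights or with the compared groups alone, at 4 h 1 with the compared groups alone, and at 1 day 11 with the compared groups alone. After withdrawal against untreated it became 2 with the length and GC trend removed, with or without the replicate block, and 0 with the compared groups alone. At 4 h against 2 h it became 2 with library weights and 1 with the trend removed or the compared groups alone. At 6 h against 2 h it became 5 with upper quartiles, 7 with library weights and 8 with the compared groups alone. The cause of these differences was not tested. For the alternatives, here and in the sections above, the share of all tested genes called is not given. Their counts therefore cannot be set against a background. Leaving out each library in turn gave totals of 1 to 3 at 2 h (1 without either 2 h library), 1 to 3 at 4 h (1 without either 4 h library), 3 to 6 at 6 h (3 without its first library), 10 to 17 at 12 h, 17 to 24 at 1 day, 18 to 21 at 2 days, 0 to 4 after withdrawal against untreated and 17 to 18 against 2 days. For 4 h, 6 h and 12 h against 2 h the totals were 0, 1 and 7 in each case, for 2 days against 12 h 18 to 20, and for the F-test 27 to 32. The F-test with the compared groups alone was not run. A lone library left in a group is assumed to vary like the other groups. Same-numbered libraries did not deviate together (Pearson r of replicate differences -0.043 to 0.037 over 13355 genes). This does not settle whether the numbers pair the samples, since a weak shared effect could give such values. With the replicate block 21 genes were called at 2 days, 19 at 1 day, 16 at 12 h, 6 at 6 h, 2 each at 4 h and 2 h, 1 after withdrawal against untreated and 20 against 2 days. The 2 libraries per group limit every call. Standard errors were wide for the low genes Naglu, Sgsh and Lipa, but also for Hexa and Cd63, which were not low.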
